A study of Mus musculus with 6 samples.

Results

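Cytosolic ribosomal protein genes were examined in neutrophils that had been sorted as Ly6G-positive cells from perfused, liberase-digested mouse lung. The mutant mice were Mrp8-Cre;TGFbR2-fl/fl, which carry a Cre and EGFP transgene under the S100A8 (Mrp8) promoter, active in neutrophils and other myeloid cells, together with loxP-flanked Tgfbr2. The wt mice were littermates with the same loxP-flanked Tgfbr2 and no Cre, so the floxed alleles are common to both groups and the transgene is not. There were 3 libraries per group, the labels name no age or treatment, and the stated design is 3 mice per group. The labels give no replicate numbers, and those used below follow the order in which the samples of each group are listed. The genes were chosen by an annotation rule, with earlier results of these data known. The rule took protein-coding genes of GENCODE M21 whose symbol is Rpl or Rps followed by a digit, or Rplp0, Rplp1, Rplp2 or Rpsa. It left out Rps6k genes, Rps19bp1 and symbols with -ps. This gave 85 of the 55487 genes of the count table, 52 of the large subunit and 33 of the small subunit, and 8 of the 85 were paralogues named after another member (such as Rpl3l after Rpl3).

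The cytosolic ribosome consists of a small subunit, which decodes the mRNA, and a large subunit, which joins amino acids into protein, and each ribosomal protein is present once per ribosome except the stalk proteins. The stalk of the large subunit, built from the Rplp0, Rplp1 and Rplp2 proteins, recruits elongation factors. Most ribosomal protein mRNAs are short, are among the most abundant mRNAs of dividing cells, and begin with a 5′ terminal oligopyrimidine (TOP) stretch, a C followed by a run of C or T, through which mTOR and LARP1 control their translation. Neutrophils do not divide once mature and hold little RNA.

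The TOP stretch is the sequence feature best known in this family, and it was looked for around the RefSeq start sites (GRCm38.p6), which were matched for 65 of the 85 members. A C followed by at least 5 C or T, on the transcribed strand and beginning within 10 bases of an annotated start, was found for 35 of the 65 members (53.8%) and for 21.1% of all 27025 genes with a start in the same table. Starting exactly at an annotated start and followed by at least 4 C or T, it was found for 14 members (21.5%) and 3.01% of all genes. The 30 bases around the start are shown for members that recur below, 15 before it and 15 from it on, with the pyrimidine run in capitals. Of these 6, Rpl7l1 and Rplp0 had no such run in this window, which says only that these letters are not there.
Rps9 (chr7:3704026-3704055, plus strand): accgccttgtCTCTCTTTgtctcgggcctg
Rps27 (chr3:90213634-90213663, minus strand): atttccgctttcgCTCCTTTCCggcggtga
Rplp2 (chr7:141447636-141447665, plus strand): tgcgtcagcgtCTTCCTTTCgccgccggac
Rps6 (chr4:86857353-86857382, minus strand): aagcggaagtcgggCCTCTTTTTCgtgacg
Rplp0 (chr5:115559452-115559481, plus strand): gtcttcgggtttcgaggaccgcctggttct
Rpl7l1 (chr17:46782642-46782671, minus strand): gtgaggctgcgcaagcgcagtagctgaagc

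Library totals ran from 30403494 to 35906780 counts, and 3 counts in a library correspond to 0.0835 to 0.0987 CPM, the usual unit that sets each count against its library's depth, a floor for counting error only. CPM values below are scaled by TMM, which aligns the libraries on the bulk of their genes. Tgfbr2 itself lay at 176, 205 and 181 CPM in mutants and at 186, 185 and 201 CPM in wt; its count pools all exons and does not check the deletion. The neutrophil markers fixed for the check (S100a8, S100a9, Csf3r, Cxcr2 and 6 others) summed to between 29613 and 38673 CPM, the highest in mutant replicate 2. Over the ribosomal protein genes mutant replicate 1 had the lowest and mutant replicate 2 the highest median level of the 6 libraries. Mutant replicate 2 did not stand apart from wt replicate 3 (medians of log2 CPM against the gene's mean 0.28 and 0.20). For the 39 members averaging under 10 CPM wt replicate 3 was the higher (0.46 against 0.30). The median fold changes over all members are also given without mutant replicate 1 and without mutant replicate 2. Shares, sums, subunit ratios and length classes are given with every library included. No label links a given library to a given mouse, and the p-values measure library-to-library spread, which may be partly technical.

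Of the 85 members, 81 passed the filter on low counts, 48 of the large and all 33 of the small subunit. The 4 that did not pass were the paralogues Rpl10l, Rpl39l and Rpl36al and the large subunit gene Rpl24. Rpl10l, known from testis, had 0 counts in all 6 libraries, which allows up to 0.0835 to 0.0987 CPM. Rpl39l had 2 counts, both in wt replicate 3. Rpl36al had 22, 5 and 2 counts in mutants and 0, 1 and 0 in wt, the highest in mutant replicate 1. Rpl24, a protein of every ribosome, had 9, 4 and 16 counts in mutants and 6, 9 and 1 in wt. Of the 100-base stretches of the Rpl24 mRNA, 80.1% also occurred in an annotated transcript of another gene, and reads that match several genes may not have been counted.

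Together the 85 members took 0.191%, 0.258% and 0.226% of all counts in mutant replicates 1 to 3 and 0.211%, 0.232% and 0.242% in wt replicates 1 to 3. The mean share was 0.225% ± 0.034 in mutants and 0.228% ± 0.016 in wt (± SD over 3 libraries per group). The groups overlapped, and mutant replicates 2 and 1 held the highest and the lowest share of all 6 libraries. Counts on the annotated -ps pseudogenes of these genes came to between 1.36% and 1.77% of the members' own counts; pseudogenes under other names are not in this figure. In bulk samples fewer cells that express a gene and less RNA per cell cannot be told apart.

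Although ribosomes hold the proteins in equal numbers, the mRNA levels per length, as counted, spanned more than 2 orders of magnitude. On the scale of CPM per kb of the exons in the table, averaged over the 6 libraries, tested members ran from 0.297 to 167 with a median of 6.23, and 64 of the 81 lay above the median of all tested genes (1.89). Rplp0, the scaffold of the stalk (chromosome 5, 115559467 to 115563727, plus strand, GRCm38), was highest. It lay at 150, 176 and 172 CPM per kb in mutants and at 159, 173 and 171 in wt. The 6 libraries thus differed little for this gene, and the groups overlapped. Rpl4 (chromosome 9, 64173375 to 64178666), a large subunit protein lining the exit tunnel, followed at 107, 106 and 125 CPM per kb in mutants and 106, 96.7 and 117 in wt. Rps9 (chromosome 7, 3703993 to 3706897), a small subunit protein that acts in assembly and decoding, led its subunit at 56.5, 102 and 67.0 in mutants and 73.5, 89.3 and 89.98 in wt. Here the libraries differed widely, with the highest and lowest values both among mutants.

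In the small subunit Rps3a1 and Rps2 followed, with means of 56.1 and 45.2 CPM per kb. Their ranges over the 6 libraries, 45.6 to 67.4 for Rps3a1 and 37.1 to 52.5 for Rps2, overlapped, so that they are not ordered beyond their spread. The 5 genes with the most counts held 36.4% to 41.6% of the members' counts in each library. At the low end of the large subunit stood Rpl3l (mean 0.401 CPM per kb), Rpl13a (0.507) and Rpl23a (0.832). The lowest of the small subunit were Rps10 (0.297), Rps15a (0.572) and Rps20 (0.793). Rps15a and Rps20 have long annotated exons, 6270 and 4080 bases, and long principal mRNAs, 5179 and 3706 bases. Their coding sequences have 390 and 357 bases, so these values per kb depend on the length used. Without length, their 3.59 and 3.23 CPM were above Rps21 (0.770), Rps27rt (0.809) and Rps28 (2.19). Rpl13a, which also belongs to a complex that silences inflammatory transcripts in myeloid cells, was counted far below Rpl13 in the same large subunit (46.8 against 1.07 CPM on average, and 18.04 against 0.507 CPM per kb). The 100-base stretches shared with other genes made up 80.0% of Rpl23a, 55.2% of Rpl13a and 47.7% of Rps10. They made up 0% of Rpl3l, 3.03% of Rps15a and 5.91% of Rps20, and 78.9% of the higher Rpl13. Whether lost reads lowered these values was not tested.

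**Figure D1:**
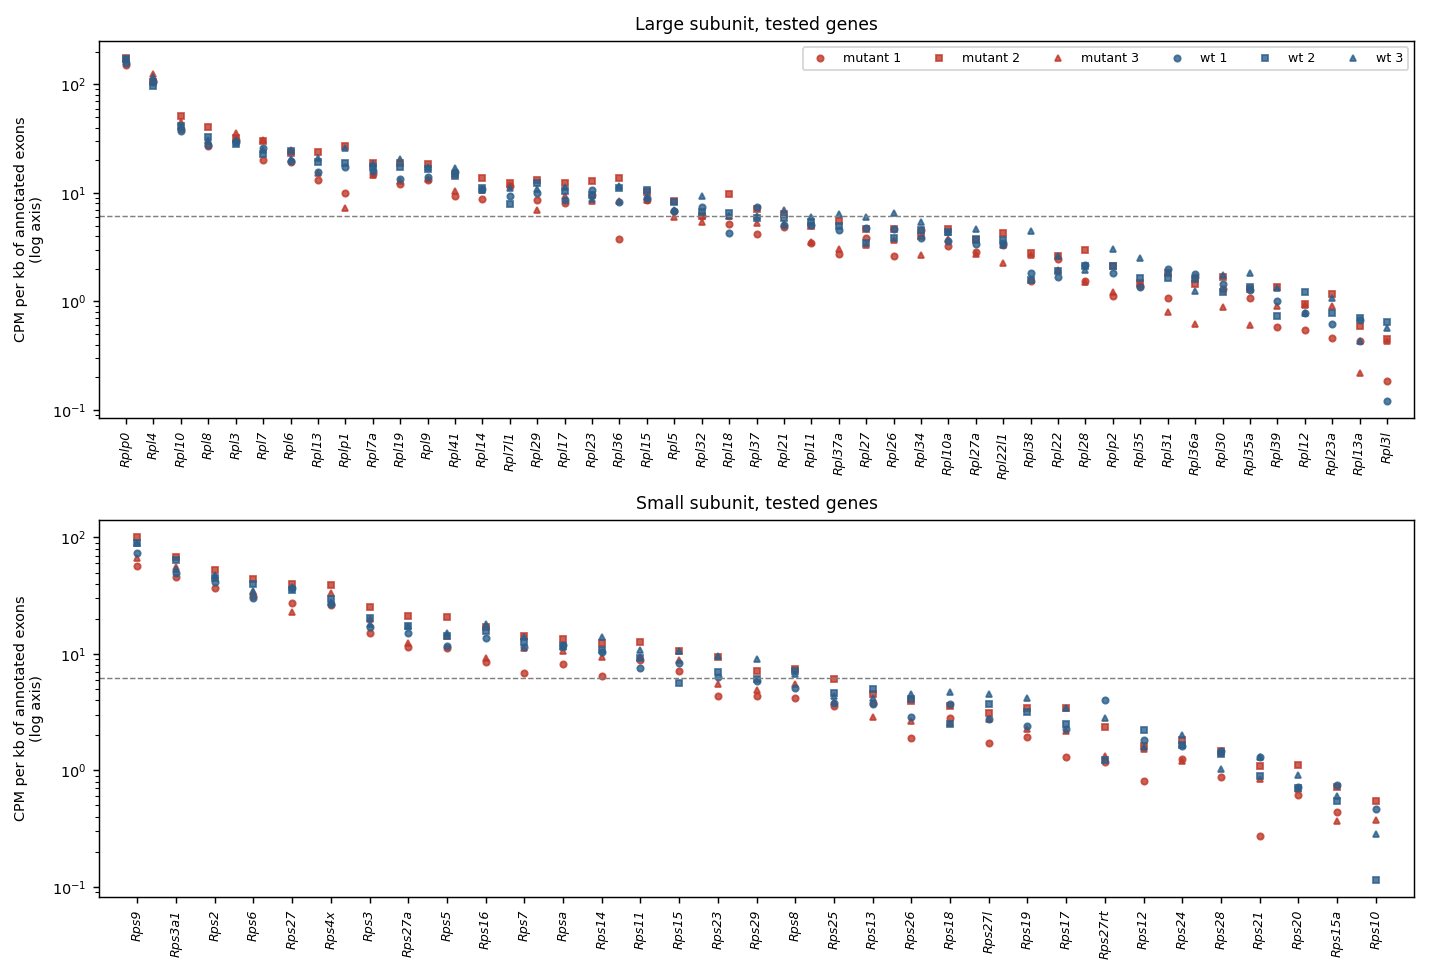
CPM per kb of annotated exons (log axis) of the tested large and small subunit genes, 1 left out, ordered by mean level, with 1 point per library (red mutant, blue wt) and a dashed line at the subunit's median. Levels fall from 167 for Rplp0 to 0.297 for Rps10, whose value of 0 in mutant replicate 1 is not drawn, and the libraries of the 2 groups are interleaved for most genes.

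The exon length of the table exceeds the principal mRNA for 80 of the 85 members, with a median ratio of 1.95 over all 85, so the levels were also set on the length of 1 principal coding transcript per gene. On this scale the median was 12.1 CPM per kb, the range 0.479 to 220, and Rps9 (220) stood above Rplp0 (204). Members with a longer coding sequence had higher levels: over the 81 members the Spearman coefficient between coding length and CPM per kb was 0.56 on the table's length and 0.55 on the length of the mRNA. This describes genes of the same 6 libraries, which are not independent replicates. The share of an mRNA's 100-base stretches that occur in annotated transcripts of other genes ranged from 0% (8 members) to 98.4% (Rps27, whose sequence recurs in Rps27rt), with a median of 31.3%. Its coefficient with the level per kb of exons was 0.12. The 25 tested members with at least 50% shared stretches had a median of 10.3 CPM per kb and the other 56 one of 5.87. Whether reads with several matches lowered the level of any member was not tested.

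Large and small subunit genes had similar typical levels, with medians over all libraries of 6.16 and 6.23 CPM per kb. The ratio of the large over the small subunit median was 1.08, 0.912 and 0.972 in mutants and 1.01, 1.02 and 0.751 in wt. Its mean was 0.988 ± 0.085 in mutants and 0.927 ± 0.152 in wt (± SD over 3 libraries per group), a difference smaller than the spread between replicates. Per kb of the principal mRNA the order of the groups turned, at 0.907 ± 0.062 in mutants and 0.978 ± 0.152 in wt. Summed over members the large subunit, with more genes and with Rplp0 and Rpl4, was higher: the ratio of sums per kb was 1.81, 1.49 and 1.73 in mutants and 1.64, 1.55 and 1.61 in wt. Mutant replicates 1 and 2 again gave the highest and the lowest value. Between these libraries the small subunit sum moved from 344 to 554 CPM per kb and the large subunit sum from 624 to 826. The sum over both subunits was 1155 ± 209 CPM per kb in mutants and 1196 ± 87.5 in wt (± SD over 3 libraries per group). The members were chosen with earlier results known, so these sums and ratios are given with no test.

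**Figure D2:**
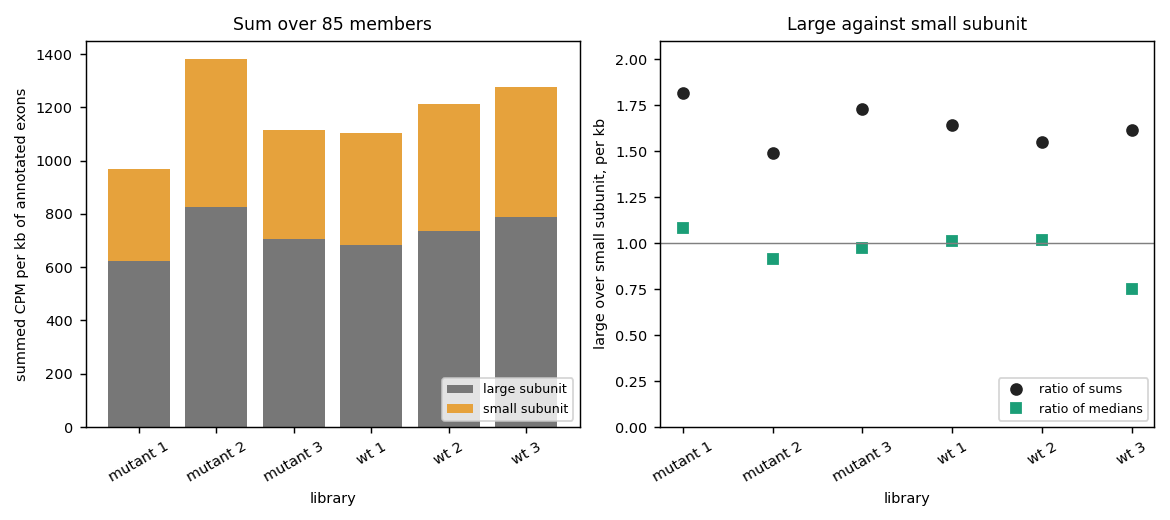
Left, summed CPM per kb of annotated exons over the 85 members in each library, split into large (grey) and small (orange) subunit; right, the ratio of large over small subunit as sums (circles) and as medians of the tested genes (squares). The sums run from 969 in mutant replicate 1 to 1381 in mutant replicate 2, with the 3 wt libraries between them.

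The comparison of mutant with wt asks what lung neutrophils transcribe when the type II TGF-beta receptor gene is targeted. By edgeR's quasi-likelihood test with Benjamini-Hochberg adjustment, 0 of the 81 tested ribosomal protein genes passed an adjusted p of 0.05 (smallest 0.767), against 0.00634% of the 15774 genes tested. At an unadjusted p under 0.05 there were 0 members by edgeR, against 6.73% of all genes (3.22% lower and 3.51% higher). DESeq2 called 0 members, against 0.983% of all genes, and had 0 at an unadjusted p under 0.05, against 7.92% (3.85% lower). limma-voom called 0 members and had 2 at an unadjusted p under 0.05, Rpl11 and Rpl41, both lower, against 7.63% of all genes (3.58% lower). The libraries of the groups did not overlap for 4 members (4.94%), 2 lower and 2 higher in mutants, against 13% of all genes (6.21% lower and 6.82% higher). The log2 fold change was below 0 for 58 of 81 members (71.6%) and for 49.3% of all tested genes. Its median was -0.17 over the members and 0.01 over all genes. For the 42 members with a mean of at least 10 CPM the median was -0.07, with 25 below 0 (59.5%, against 52.5% of all genes at this level). For the 39 less abundant members it was -0.30, with 33 below 0 (84.6%, against 49.3% of tested genes of any level). For the large subunit the median was -0.15, with 36 of 48 below 0, and for the small subunit -0.20, with 22 of 33 below 0.

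The members with the smallest p on the lower side were Rpl11, Rpl41, Rplp2 and Rps16. Rpl11 (chromosome 4, 136028265 to 136053428, minus strand), which besides its place in the large subunit binds MDM2 and so stabilises p53, lay at 9.34, 13.4 and 9.60 CPM in mutants and at 13.8, 14.5 and 16.3 CPM in wt. All 3 mutant libraries lay below all 3 wt libraries. Its log2 fold change, -0.46 ± 0.22 (SE), did not pass the test (edgeR, adjusted p 0.767). Rpl41, the smallest ribosomal protein, lay at 10.9, 17.3 and 12.2 CPM in mutants and 18.4, 16.6 and 19.7 CPM in wt; mutant replicate 2 reached into the wt range. The stalk gene Rplp2 lay at 2.32, 4.40 and 2.52 CPM in mutants and 3.81, 4.43 and 6.25 CPM in wt, and Rps16 at 10.7, 21.7 and 11.7 against 17.5, 20.1 and 23.1 CPM. In both, mutant replicates 1 and 3 were below every wt library and mutant replicate 2 was not. Their log2 fold changes were -0.65 ± 0.38 and -0.46 ± 0.27 (SE), and both adjusted p were 0.851 by edgeR. Rpl32, named because its groups did not overlap and after its values were seen, lay at 5.89, 5.86 and 5.17 CPM in mutants and 7.09, 6.41 and 9.001 CPM in wt.

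On the higher side the smallest p belonged to Rpl7l1, Rpl3, Rpl10 and Rps4x. Rpl7l1 (chromosome 17, 46773907 to 46782672, minus strand), a paralogue of Rpl7, lay at 40.1, 43.0 and 41.3 CPM in mutants and at 32.5, 27.7 and 38.8 CPM in wt. The groups did not overlap, and the log2 fold change, 0.33 ± 0.16 (SE), did not pass the test (edgeR, adjusted p 0.767). Rpl3, which lies close to the peptidyl transferase centre, lay at 98.4, 102 and 114 CPM in mutants and 94.1, 88.9 and 97.0 CPM in wt. The groups were separate by a narrow margin (log2 fold change 0.17 ± 0.11, SE, adjusted p 0.882 by edgeR). Rpl10, which completes the maturation of the large subunit, lay at 79.5, 105 and 93.3 against 76.4, 84.4 and 83.0 CPM, and the X-linked small subunit gene Rps4x at 42.8, 64.0 and 53.9 against 44.1, 48.5 and 45.4 CPM. Both overlapped between groups.

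**Figure D3:**
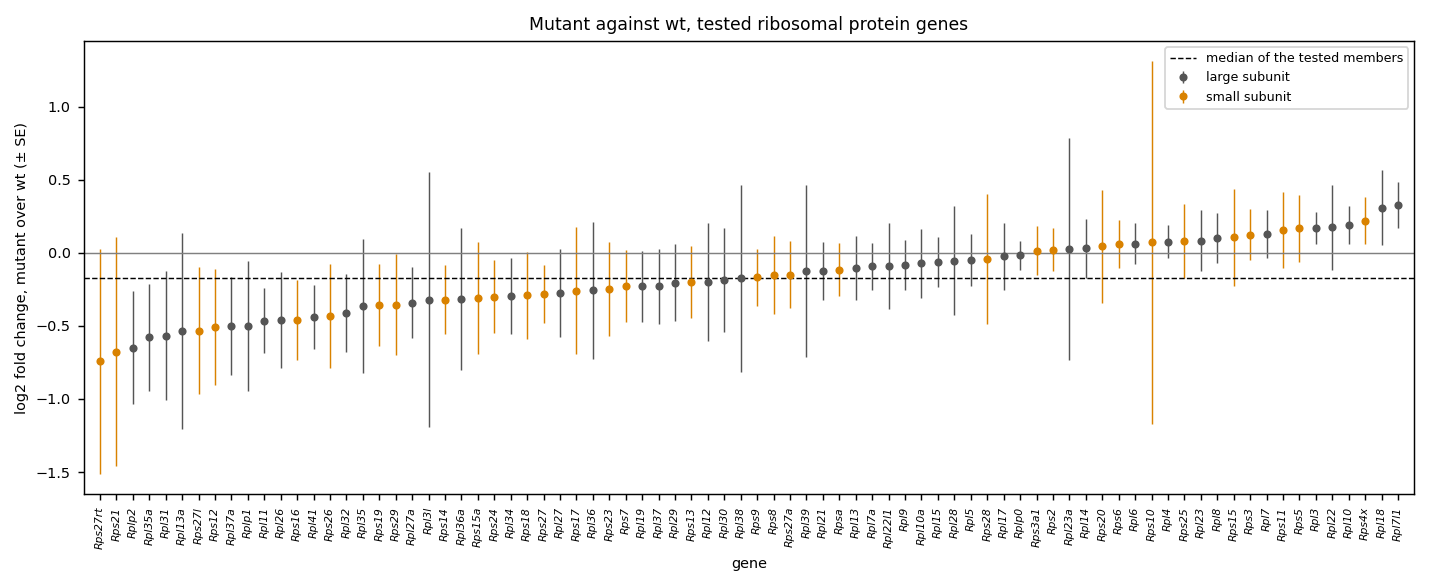
Log2 fold change of mutant over wt with its standard error for the tested members, 1 left out, ordered by value, with large subunit genes in grey, small subunit genes in orange and a dashed line at the median of all 81, -0.17. Values run from -0.74 (Rps27rt) to 0.33 (Rpl7l1), and 0 pass the adjusted threshold.

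Genes known for roles outside the ribosome, in signalling or in disease, had overlapping groups, Rpl11 excepted. Rpl5, the partner of Rpl11 in binding MDM2, lay at 26.7, 33.1 and 23.6 CPM in mutants and 26.7, 32.5 and 27.1 CPM in wt. Rps6, the substrate of S6 kinase, lay at 49.9, 70.1 and 53.6 against 48.3, 62.8 and 55.2 CPM. Rps27a, which encodes ubiquitin fused to a small subunit protein, lay at 22.8, 41.9 and 24.4 against 30.1, 34.4 and 34.2 CPM. In each of these 3 genes mutant replicate 2 was the highest library and the groups overlapped. Rps19, mutated in Diamond-Blackfan anaemia, lay at 9.07, 16.0 and 10.6 against 11.3, 14.8 and 19.6 CPM, and Rpl13a at 0.912, 1.25 and 0.461 against 1.41, 1.49 and 0.906 CPM. Rpsa, a small subunit protein that also serves as a laminin receptor, lay at 25.9, 42.3 and 33.6 CPM in mutants and 37.6, 36.7 and 36.0 CPM in wt. The wt libraries fell within a narrow span, which the mutant libraries exceeded on both sides.

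The largest differences within the family were between libraries of the same group. Each gene's log2 CPM was set against its own mean over the 6 libraries. In mutant replicate 1, 77 of 81 members were below their mean, all 33 small subunit genes among them, with a median of -0.32. In mutant replicate 2, 77 of 81 were above it, again including all 33 of the small subunit, with a median of 0.28. The medians were -0.16 in mutant replicate 3 and -0.06, 0.08 and 0.20 in wt replicates 1 to 3. Over all tested genes the medians of the 6 libraries lay between 0.02 and 0.03. Mutant replicate 1 held the lowest value of 48 members and the highest of 0, whereas mutant replicate 2 held the highest of 39 and the lowest of 0, and wt replicate 3 the highest of 27. Among all genes these shares lay between 15.9% and 17.8%.

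**Figure D4:**
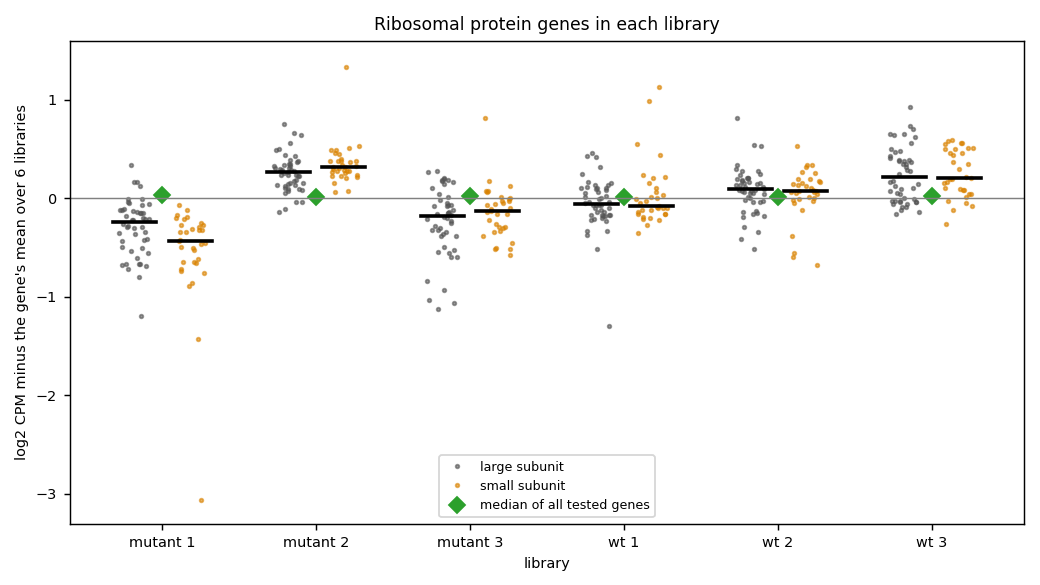
Log2 CPM of each tested member minus that gene's mean over the 6 libraries, by library, with large subunit genes in grey, small subunit genes in orange, black bars at their medians and a green diamond at the median of all tested genes. The members lie mostly below 0 in mutant replicate 1 (median -0.32) and mostly above 0 in mutant replicate 2 (0.28), while the medians of all genes stay near 0.

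The size of the difference between mutant and wt depended on which mutant library was included. Without mutant replicate 1 the median log2 fold change of the members was -0.01 and 41 of 81 were below 0 (49.5% of all genes). The small subunit median changed sign to 0.01. In that fit 0 members were lower at an unadjusted p under 0.05 (3.43% of all genes), and 2 were higher, Rpl7 and Rps4x (6.88% of all genes in either direction). Without mutant replicate 2 the median was -0.42, 73 of 81 were below 0 (49.8% of all genes), and 12 were lower at an unadjusted p under 0.05 (3.96% of all genes, 7.65% in either direction), among them Rplp1, Rps16, Rps9, Rps27 and Rpl11. The smallest adjusted p of a member in that fit was 0.462 by edgeR, so 0 were called there as well, against 0.012% of all genes. The median was also more than 1.5 times nearer to 0 without mutant replicate 3 (-0.09) and without wt replicate 3 (-0.09).

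As a measure of spread, the SD of log2 CPM within groups, pooled over both, had a median of 0.34 over the members and 0.37 over all tested genes. Among genes averaging 10 CPM or more the order was the other way, with 0.25 over 42 members and 0.20 over all genes. Without mutant replicate 2 the median over the members fell to 0.22. edgeR's estimate of each gene's variability exceeded the trend for genes of equal abundance in 27.2% of the members and in 34.0% of all genes. From 10 CPM on this too was reversed, at 42.9% of members (18 of 42) and 30.4% of all genes. Below 10 CPM it was 10.3% of members, against 34.0% of tested genes of any level. Among the members this held for 14 of 33 small subunit genes and 8 of 48 large subunit genes. The least variable members were Rpl3, Rplp0 and Rpl4, with SD of 0.09, 0.10 and 0.13. Among members with a mean of at least 1 CPM the most variable were the stalk gene Rplp1 (0.73), Rpl36 (0.68) and Rpl38 (0.64). Rplp1 lay at 4.95, 13.5 and 3.63 CPM in mutants and 8.61, 9.48 and 13.1 CPM in wt, and Rpl36 at 1.44, 5.285 and 3.20 against 3.15, 4.26 and 4.41 CPM. Rpl38, known for its part in the translation of Hox mRNAs, lay at 0.829, 1.52 and 1.45 against 0.985, 0.859 and 2.44 CPM. Rps10, with a mean under 1 CPM, had 0 counts in mutant replicate 1 and 0.861 to 1.25 CPM in the other mutants, against 0.264 to 1.08 CPM in wt. The stalk genes thus differed, Rplp0 being abundant with a small spread and Rplp1 the most variable of the members averaging at least 1 CPM.

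The departure of mutant replicate 1 from the other libraries was larger for short mRNAs, among the members and among other genes, whereas that of mutant replicate 2 was not graded this way among the members. From the shortest to the longest of 4 length classes the members' medians were -0.53, -0.36, -0.28 and -0.16 in mutant replicate 1. In mutant replicate 2 they were 0.26, 0.29, 0.29 and 0.33. For the 20 members with a principal mRNA of up to 600 bases the median was -0.32 in mutant replicate 3 and 0.08, 0.13 and 0.45 in wt replicates 1 to 3. The 113 other protein-coding genes of that length had medians of -0.27, 0.19 and -0.08 in mutants and 0.00, 0.15 and 0.16 in wt, and in mutant replicate 2 the 546 others of the next class had a higher one, 0.25. The 9542 other genes over 2000 bases had medians between -0.01 and 0.05 in every library. The median log2 fold change of members was -0.30 up to 600 bases, -0.19 above 600 and up to 1000 bases (31 genes), -0.04 above that and up to 2000 bases (24 genes) and 0.11 for longer mRNAs (6 genes). In other genes of the first 2 classes it was -0.15 and -0.01. The members' median level also differed between the 4 classes, at 3.97, 11.6, 18.8 and 16.0 CPM. Over the tested members the Spearman coefficient with the log2 fold change was 0.51 for mean CPM and 0.44 for mRNA length. Length and level were not separated. With the median of the other genes of the same length class taken off, the members' median log2 fold change was -0.13 with 58 of 81 below 0, and their median levels were -0.25, 0.12 and -0.14 in mutants and -0.01, 0.00 and 0.18 in wt. Mutant replicate 1 was still the lowest library on this scale, while wt replicate 3 and not mutant replicate 2 was the highest. The part of mRNA length in the difference between groups was not tested further, and this adjustment was added after the data were seen.

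**Figure D5:**
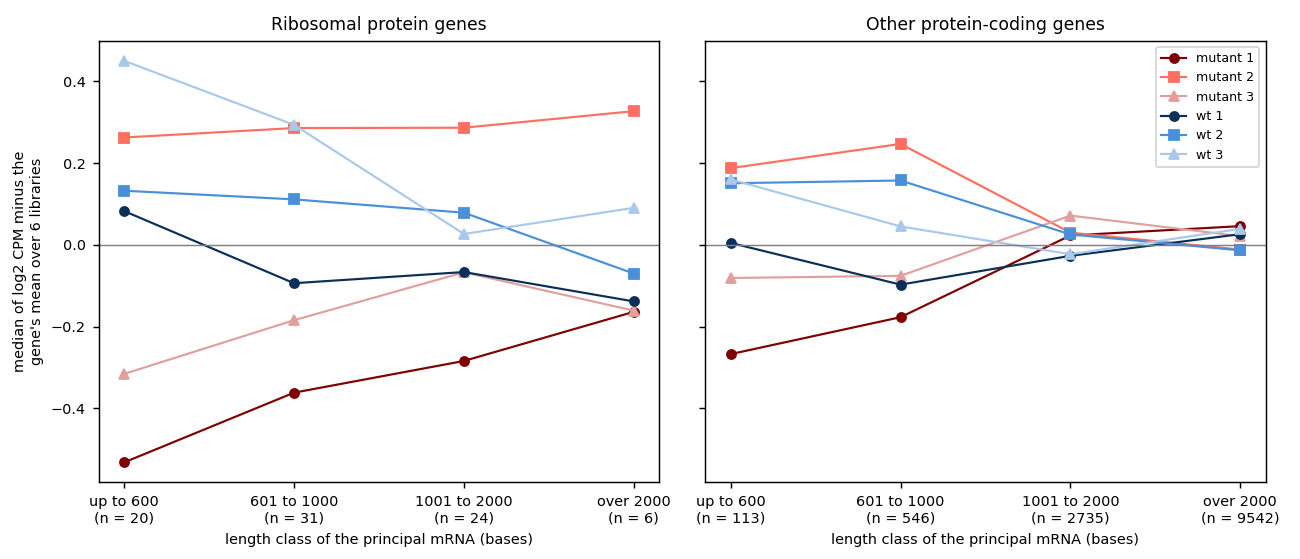
Median of log2 CPM minus the gene's mean over the 6 libraries, by length class of the principal mRNA in bases, for the ribosomal protein genes (left) and all other tested protein-coding genes (right), with 1 line per library. Among genes of up to 600 bases mutant replicate 1 is the lowest library in both panels (-0.53 and -0.27), and for the other genes the lines meet near 0 above 1000 bases.

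Of the 8 paralogues, 5 were tested. Rpl22l1 was above its parent Rpl22, with means of 3.39 and 2.21 CPM per kb of exons and of 12.2 and 3.14 CPM per kb of the principal mRNA. Rpl22 lay at 7.13, 7.69 and 5.66 CPM in mutants and 4.89, 5.55 and 7.69 CPM in wt. Rpl22l1 lay at 6.61, 8.47 and 4.52 against 6.90, 7.33 and 6.59 CPM, and both overlapped between groups. Rpl7l1 had a mean of 10.7 CPM per kb and Rpl7 one of 25.7. Rps27l, a p53 target that differs little in protein sequence from Rps27, had 3.10 against 33.4 CPM per kb. It lay at 1.41, 2.54 and 2.245 CPM in mutants and 2.23, 3.04 and 3.69 in wt. Rps27rt is a copy of Rps27 with 89.5% of its 100-base stretches shared, so that its 0.605 ± 0.240 CPM in mutants and 1.01 ± 0.526 in wt (± SD over 3 libraries per group) are uncertain. The muscle paralogue Rpl3l was low, at 0.304, 0.745 and 0.707 CPM in mutants and 0.197, 1.06 and 0.938 in wt. In the untested pairs the parents Rpl36a and Rpl39 had means of 1.40 and 0.983 CPM per kb, and Rpl10, the parent of Rpl10l, had 42.4.

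Other genes of translation were taken from fixed lists, and 0 of them were called by edgeR. Ribosome-borne proteins outside the symbol rule include Fau, which encodes a ubiquitin-like protein fused to a ribosomal protein, and Rack1, a signalling scaffold on the small subunit. Fau lay at 64.8, 126 and 73.0 CPM in mutants and 85.8, 105 and 125 CPM in wt, the lowest and highest of the 6 libraries being mutant replicates 1 and 2. Rack1 lay at 30.6, 40.4 and 44.0 against 34.8, 31.9 and 33.7 CPM. Of 14 elongation and termination factors 9 were above 0, with a median log2 fold change of 0.07 and 1 higher at an unadjusted p under 0.05 (all genes 3.51%), the release factor Etf1 at 156 ± 8.74 CPM in mutants against 106 ± 11.8 CPM in wt (± SD over 3 libraries per group). Of 37 initiation factors and poly(A)-binding proteins 22 were above 0 (median 0.05, 3 higher at an unadjusted p under 0.05, all genes 3.51%), led by the helicase gene Eif4a1 at 340 ± 18.2 against 251 ± 25.6 CPM.

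Of 19 tested genes in the control of TOP mRNAs by mTOR and LARP1, 8 were above and 11 below 0 (median -0.06), with 1 in each direction at an unadjusted p under 0.05, against 3.51% higher and 3.22% lower over all genes. The one with the smallest p, the TOP mRNA binding protein gene Cnbp, lay at 539 ± 61.8 CPM in mutants against 442 ± 16.5 CPM in wt (± SD over 3 libraries per group). Of 49 ribosome assembly factors 25 were above 0 (median 0.04, 4 higher at an unadjusted p under 0.05, all genes 3.51%), and Nop53 had the smallest p at 430 ± 31.2 against 272 ± 33.9 CPM. Of 77 tested mitochondrial ribosomal protein genes, which are encoded in the nucleus and serve a separate ribosome, 39 were below 0 (median 0.00, 1 in each direction at an unadjusted p under 0.05, all genes 3.51% higher and 3.22% lower), with Mrpl1 at 6.09 ± 0.570 against 9.44 ± 1.2002 CPM. Adjusted p of the genes named here ran from 0.242 for Nop53 to 0.938 for Fau by edgeR. In mutant replicates 1 and 2 the medians against the gene's mean were -0.05 and 0.06 for the mitochondrial ribosomal protein genes, against -0.32 and 0.28 for the cytosolic ones. The elongation and termination factors had -0.08 and 0.24, with 12 of 14 above their mean in mutant replicate 2 and 8 of 14 highest there, near the cytosolic ribosomal protein genes in that library. The initiation factors had 0.06 and 0.04, the TOP control genes -0.11 and 0.01, and the assembly factors 0.08 and 0.04.

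Lymphocytes and tissue cells are known to carry more ribosomal protein mRNA than neutrophils, and the markers of other cell types were summed beside the members. All 8 B and plasma cell markers were detected, and they summed to 49.6 to 69.5 CPM in mutants and 33.5 to 57.1 CPM in wt, with the highest value in mutant replicate 2. The 8 T cell markers summed to 18.5 to 26.7 CPM in mutants and 16.6 to 33.1 in wt, and the 7 NK cell markers to 20.5 to 34.9 and 24.2 to 41.6. The 9 alveolar macrophage markers summed to 612 to 1269 CPM in mutants and 352 to 559 in wt, the 8 epithelial markers to 524 to 962 and 256 to 535, and the 7 fibroblast markers to 393 to 620 and 286 to 344. These 3 sums were highest in mutant replicate 3. The 8 monocyte and dendritic cell markers summed to 6073 to 6690 CPM in mutants and 4440 to 6305 in wt, the 7 endothelial markers to 1127 to 1390 and 1251 to 1550, and the 6 erythroid markers to 3.07 to 3.96 and 0.788 to 2.78. Only sums were taken, and a sum may rest largely on a single gene that is not confined to its cell type. The part of other cell types in the levels of the ribosomal protein genes was not tested.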

How the data were processed

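RNA-seq libraries of sorted lung neutrophils (3 mutant, 3 wt) were analysed from the authors' deposited table of raw read counts per gene, with STAR, featureCounts and GRCm38 named per the submitters' processing notes. Their versions, the strand setting and the treatment of reads with several matches: not given in the sources used here. cDNA was made by SMART-Seq v2 and libraries with Nextera XT, per the labels' protocols, so strand is not marked and PCR copies are counted. Per the file headers each gene has its summed exon length in bases, an annotation value of no other unit. Symbols came from GENCODE M21 (55094 identifiers matched exactly, 300 without version, 93 not). Principal mRNAs were chosen by APPRIS rank, then coding length.

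Genes kept by edgeR's filterByExpr (minimum count 10; 15774 genes) were scaled by TMM and compared in edgeR (version 4.0.16 under R 4.3.3) with glmQLFTest, its quasi-likelihood test, Benjamini-Hochberg adjustment running over all tested genes at 5%. Standard errors are the fold change over the square root of F. The test was checked on simulated counts with fold changes set in advance. These had less spread among the less abundant genes than the data, and no library that stood apart. The check therefore does not give the power of the test in these data. Log2 CPM used a prior count of 2. Alternatives were DESeq2 (1.42.0), limma-voom (3.58.1), other scalings and filters, added pseudogene counts and leaving out each library. Named members are the 3 highest and lowest per kb of each subunit, the 4 smallest p in each direction, the 3 most and least variable, the stalk genes with Rpsa, paralogues with parents, and 6 genes with known further roles; of the other lists the smallest p, with Fau and Rack1. Some of the items this rule names are not reported here. Members and lists were chosen with earlier results of these data known.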

Additional observations from a re-analysis of the deposited data

How the results depend on the processing

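No paired analysis was made because the labels give no replicate numbers and no pairs. No alternative called a member. Over all genes edgeR called 1 higher and 0 lower, DESeq2 81 and 74, the fit with no filter on low counts 41 and 29, and a fit restricted to genes averaging 10 CPM or more, and so to fewer genes, 14 and 5; the cause of the other differences was not tested. In that last fit 25 of 42 members were below 0 and their median log2 fold change was -0.06. As ratios of sums in place of medians, large over small subunit was 1.68 in mutants and 1.6025 in wt, and summed CPM without length correction was 2249 and 2295. With limma-voom the log2 fold change turned negative for Rpl23a (-0.096), Rps10 (-1.47), Rps20 (-0.022) and Rps3a1 (-0.0042), and with pseudogene counts added for Rpl23a (-0.096); the cause was not tested. The other 267 of 272 pairs of named gene and setting kept direction and call.

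Leaving out each library in turn, edgeR called 0 to 1 genes higher and 0 to 1 lower over all genes. The median log2 fold change ran from -0.42 to -0.0063 for all members and from -0.48 to 0.012 for the small subunit, and the median spread from 0.22 to 0.37. Of 36 named members 18 changed sign, with ranges of -0.32 to 0.12 (Rpl22l1), -0.27 to 0.33 (Rpl23a), -0.77 to 0.11 (Rpl36), -0.60 to 0.010 (Rpl36a), -0.44 to 0.46 (Rpl38), -0.47 to 0.13 (Rpl39), -0.77 to 0.042 (Rpl3l), -0.0039 to 0.15 (Rpl4), -0.20 to 0.058 (Rpl5) and -0.065 to 0.053 (Rplp0). For the small subunit the ranges were -0.64 to 0.66 (Rps10), -0.10 to 0.15 (Rps2), -0.26 to 0.21 (Rps20), -0.48 to 0.013 (Rps27a), -0.14 to 0.15 (Rps3a1), -0.10 to 0.16 (Rps6), -0.45 to 0.0027 (Rps9) and -0.31 to 0.048 (Rpsa). Members with few counts, such as Rps10, are measured less precisely. The 0 counts of Rps10 lay in mutant replicate 1, the library with the largest total, and the cause of its spread was not tested.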
